A study of Mus musculus with 405 samples.

Results

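The 10 genes described here are the glucose transporter gene Slc2a1, the glycolytic enzyme genes Hk2, Pfkp, Aldoa and Pgk1, the genes Ldha and Pdk1 that set the fate of pyruvate, and the hypoxia response genes Vegfa, Bnip3 and Ak4. They were chosen by gene symbol as genes of glycolysis and of the response to low oxygen, and all 10 were present among the 13304 genes of the screen table and among the 23893 genes of the pyraclostrobin count table. In the count table all 10 were among the 12324 genes that passed the filter on low counts.

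Cortical cells from embryos (E15) of C57BL/6J mothers and CAST/EiJ fathers were grown for 7 days in vitro, with an inhibitor of mitosis added to the medium, and then exposed for 24 h to a single chemical or to vehicle, which was DMSO. The screen table held 344 libraries of 297 chemicals, most of them pesticides, and 49 vehicle libraries. Each chemical was used at a concentration that did not kill the cells in a separate assay, and the count table held 4 libraries of 0.1 μM pyraclostrobin and 4 vehicle libraries. These cultures are rich in neurons but also hold astrocytes, microglia and other cells, so each value is a sum over cell types.

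Cells that burn glucose take it up through transporters such as GLUT1, the product of Slc2a1, and split it into pyruvate through the glycolytic enzymes. Pyruvate then enters mitochondria, where the respiratory chain (complexes I to IV) builds the proton gradient that ATP synthase uses, or it is turned into lactate by lactate dehydrogenase. When oxygen is low, hydroxylation of the HIF α subunits stops, HIF enters the nucleus, and genes of glucose uptake, glycolysis, lactate production and mitophagy are transcribed. Respiratory inhibitors bear on this system in more than one way, since they lower ATP production and also leave oxygen unused.

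On build mm9, Slc2a1 lay at chr4:118781316-118809935 on the plus strand and Ak4, which encodes a mitochondrial adenylate kinase, at chr4:101091882-101140376 on the plus strand. The glycolytic enzyme genes lay at chr6:82675019-82724448 (Hk2, minus strand), chr13:6579014-6648023 (Pfkp, minus), chr7:133938748-133944265 (Aldoa, minus) and chrX:103382439-103399038 (Pgk1, plus). Ldha lay at chr7:54096845-54110997 (plus) and Pdk1 at chr2:71711281-71741915 (plus). Vegfa lay at chr17:46153942-46169326 (minus) and Bnip3 at chr7:146082519-146101202 (minus). Reads were counted over the exons of each gene, so these spans include introns that were not counted.

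HIF binds a short core in the DNA of its target genes, which reads ACGTG or GCGTG. The 250 bases before each start site were searched on both strands for these 5-letter words in the RefSeq promoters of build GRCm38.p6, and all 10 genes matched, with 18 promoters. A core was found in 15 of the 18 promoters and in at least 1 promoter of each of the 10 genes. For Vegfa, on the minus strand, it stood only at the more downstream start (chr17:46025164-46025413). The window of its upstream start (chr17:46032378-46032627) held none. Of all 32851 promoters of that length, 38.6% held 1 or more cores. At least 2 separate runs of the core stood in 10 of the 18 promoters, against 13.4% of all promoters, but 4 of the 18 belong to Ak4 and several of the windows of Ak4 and Aldoa overlap. A match of letters is not a bound site, and no binding was measured here. The promoters below belong to the gene with the largest fall (Bnip3), to a gene that followed it closely (Ldha), to the gene that was higher with pyraclostrobin in the count table (Slc2a1) and to the gene that correlated least with the rest (Pfkp). Capitals mark the cores, either as written or as their reverse complements CACGT and CACGC, and cores that overlapped, as in CACGTG, were joined into 1 run.
Bnip3 (GRCm38.p6, chr7:138909507-138909756, minus strand, 4 runs): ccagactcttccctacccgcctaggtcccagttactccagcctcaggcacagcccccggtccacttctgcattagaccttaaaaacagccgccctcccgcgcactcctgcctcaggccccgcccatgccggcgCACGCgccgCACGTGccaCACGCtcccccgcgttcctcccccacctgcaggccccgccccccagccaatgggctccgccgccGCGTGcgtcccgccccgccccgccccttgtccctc
Ldha (chr7:46845554-46845803, plus strand, 3 runs): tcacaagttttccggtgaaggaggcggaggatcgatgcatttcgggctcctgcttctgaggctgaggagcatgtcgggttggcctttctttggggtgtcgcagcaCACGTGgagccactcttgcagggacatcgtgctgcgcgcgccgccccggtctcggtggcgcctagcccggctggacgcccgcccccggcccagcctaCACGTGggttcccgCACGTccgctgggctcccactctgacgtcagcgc
Slc2a1 (chr4:119108495-119108744, plus strand, 2 runs): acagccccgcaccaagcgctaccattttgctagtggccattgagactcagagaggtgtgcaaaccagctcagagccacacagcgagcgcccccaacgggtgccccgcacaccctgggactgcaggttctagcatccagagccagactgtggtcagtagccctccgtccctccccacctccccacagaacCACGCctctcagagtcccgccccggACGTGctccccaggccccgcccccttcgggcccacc
Pfkp (chr13:6648772-6649021, minus strand, 3 runs): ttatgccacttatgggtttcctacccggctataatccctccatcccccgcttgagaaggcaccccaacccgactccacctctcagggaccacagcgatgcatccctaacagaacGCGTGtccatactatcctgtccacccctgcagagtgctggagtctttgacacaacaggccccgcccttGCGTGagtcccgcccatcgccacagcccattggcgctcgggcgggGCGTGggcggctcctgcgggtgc
The Pfkp promoter held as many runs as this Ldha promoter, but of another word. Its cores were 3 GCGTG and no ACGTG, against 5 ACGTG and no GCGTG in Ldha, counted on both strands. Of all 32851 promoters, 9250 held GCGTG and 5444 held ACGTG.

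The first comparison asked how the genes stood in cultures given an inhibitor of complex I or complex III, 12 chemicals in all, relative to the 278 chemicals that were not placed in any of the mitochondrial target classes. Of the 10 genes, 5 passed the test (limma, Benjamini-Hochberg adjustment over all genes, threshold 0.05), and all 5 were lower with the inhibitors. Among all 13304 genes, 14.4% passed in that direction, 8.2% in the other and 22.6% in either. The genes that fell were Bnip3, Pdk1, Ldha, Vegfa and Aldoa. The difference was below 0 for all 10 genes and had a median of -0.22 on the log2 scale, while the median over all genes was -0.00. Screen values are deviations of each gene from its own centre over libraries, given here as log2, so they compare cultures and not genes.

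**Figure D1:**
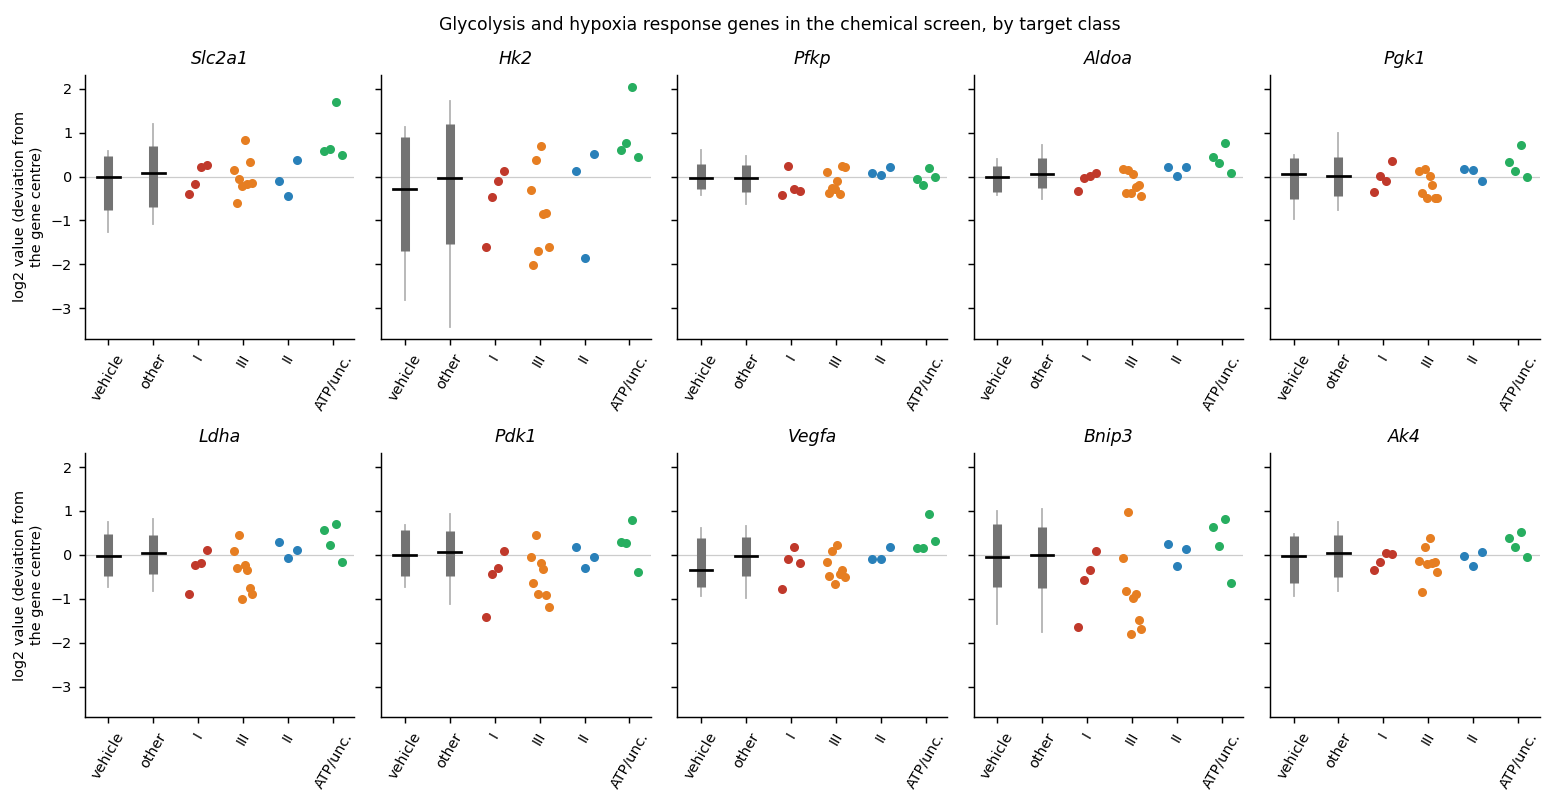
Screen values of the 10 genes, with the log2 deviation from the gene's centre on the vertical axis. Grey bars are the 49 vehicle libraries and the 278 other chemicals (thin line, range; thick line, 5th to 95th percentile; black line, median), and each coloured point is 1 chemical that inhibits complex I, III or II, or that inhibits ATP synthase or uncouples (ATP/unc.). For Bnip3, 7 of the 12 points of complexes I and III lie below the 5th percentile of the other chemicals.

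Bnip3, which encodes a mitochondrial outer membrane protein that takes part in mitophagy, showed the largest change. Its log2 values under the 12 inhibitors ranged from -1.81 to 0.98 with a median of -0.86, and those under the other chemicals from -1.75 to 1.04 with a median of -0.01. Of the 12 inhibitors, 10 were below the median of the other chemicals and 7 were below their 5th percentile, so the groups overlapped but their centres were far apart. The difference was -0.74 on the log2 scale (SE 0.13, adjusted p = 7.2e-07), which corresponds to 59.8% of the level under other chemicals. The fit used 1 variance for all chemicals, while the SD of Bnip3 was 0.84 over the 12 inhibitors and 0.41 over the 278 others. The SE and the p-value therefore understate the spread among the inhibitors.

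Pdk1 and Ldha act at the fork between lactate and the mitochondrion. Pdk1, whose kinase switches off pyruvate dehydrogenase, ranged from -1.41 to 0.45 under the inhibitors (median -0.38), with 10 of 12 below the median of the other chemicals and 5 below their 5th percentile. The difference was -0.53 (SE 0.09, adjusted p = 1.55e-06). Ldha, whose product makes lactate from pyruvate, ranged from -1.0 to 0.46 (median -0.27), with 9 of 12 below the median and 4 below the 5th percentile of the others. Its difference was -0.39 (SE 0.08, adjusted p = 3.12e-05). Here too the SD was larger over the inhibitors than over the other chemicals (0.55 against 0.31 for Pdk1, 0.45 against 0.26 for Ldha). Both genes therefore stood low with most of these inhibitors. They were high with cyazofamid (0.45 for Pdk1 and 0.46 for Ldha). Tebufenpyrad (0.09 and 0.11) and, for Ldha, azoxystrobin (0.08) lay near the median of the other chemicals.

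Among the glycolytic enzymes, Aldoa fell by 0.20 on the log2 scale (SE 0.06, adjusted p = 0.00624), a small change in a gene with a narrow range. Against the vehicle libraries the Aldoa difference was -0.07 and did not pass. Hk2, the hexokinase that hypoxia induces, had a larger difference of -0.58 but also a larger error (SE 0.24, adjusted p = 0.0654) and did not pass, although it passed when tebufenpyrad, fenamidone or cyazofamid was left out. Its values under the inhibitors ran from -2.01 to 0.69 with 9 of 12 below the median of the others, and its SD was 0.80 both over the vehicle libraries and over the other chemicals. Pgk1 (-0.18, SE 0.08, adjusted p = 0.107) and Pfkp, a platelet-type phosphofructokinase (-0.10, SE 0.06, adjusted p = 0.227), did not pass. The glucose transporter Slc2a1 differed by -0.05 (SE 0.13, adjusted p = 0.824), with a 95% interval from -0.30 to 0.19, and 7 of 12 inhibitors were below the median of the others.

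Of the hypoxia response genes, Vegfa, an angiogenic growth factor gene, fell by 0.23 (SE 0.08, adjusted p = 0.0288) and Ak4 had a difference of -0.17 (SE 0.08, adjusted p = 0.155). The Vegfa call was the weakest of the 5. It was lost when fenpyroximate, fluoxastrobin, pyraclostrobin, trifloxystrobin, famoxadone or bifenazate was left out, and against the vehicle libraries the difference was 0.06. Vegfa itself was lower in vehicle libraries (median -0.35) than in the other chemicals (median -0.03), so the choice of reference decided its direction.

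Cell type markers moved in the same comparison. All 4 neuron markers (Rbfox3, Tubb3, Snap25 and Syt1) were lower with complex I and III inhibitors, with differences from -0.38 for Syt1 to -0.27 for Tubb3, and 3 of 4 astrocyte markers were higher (Gfap, 0.53). Mural or fibroblast markers were higher for 2 of 4, Col1a1 (0.73, adjusted p = 4.84e-05) and Pdgfrb (0.49, adjusted p = 0.00732), while 0 of 2 microglial and 0 of 3 oligodendrocyte lineage markers passed in limma (lowest adjusted p = 0.155, for Olig2). Over the 297 chemicals, the Spearman correlation of a neuron marker with the mean of the 10 genes was between 0.116 (Syt1) and 0.249 (Tubb3). Among these inhibitors, the paper counted cells positive for NeuN, Gfap and Iba1 after fenamidone at 10 μM. It reports no significant change in their numbers. The part of cell composition in the changes of the 10 genes was not tested here. Fewer cells of a type cannot be told apart from less RNA per cell in these bulk libraries.

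The inhibitors of complex I and complex III were then compared with the other chemicals on their own. With the 4 complex I inhibitors (rotenone, fenpyroximate, pyridaben and tebufenpyrad), 1 of 10 genes passed, against 4.85% of all genes called lower, 0.879% called higher and 5.73% called in either direction. This was Pdk1, with a difference of -0.56 (SE 0.16, adjusted p = 0.0171), and it was not called without fenpyroximate, when the difference was -0.26, or without pyridaben, when it was -0.58. With the 8 complex III inhibitors (azoxystrobin, fluoxastrobin, pyraclostrobin, trifloxystrobin, famoxadone, fenamidone, cyazofamid and bifenazate), 4 of 10 genes fell, against 10.8% of all genes called lower, 4.94% called higher and 15.7% called in either direction. These were Bnip3 (-0.81, SE 0.16, adjusted p = 1.76e-05), Pdk1 (-0.51, SE 0.12, adjusted p = 0.000299), Ldha (-0.41, SE 0.10, adjusted p = 0.000572) and Aldoa (-0.23, SE 0.07, adjusted p = 0.0136). The Aldoa call was lost without trifloxystrobin, famoxadone or bifenazate, and against the vehicle libraries its difference was -0.10. The SD of Bnip3 over the 8 complex III inhibitors was 0.93, again larger than over the other chemicals.

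When the classes were compared with each other, none of the 10 genes passed the limma test, none had an unadjusted p under 0.05, and 0% of all genes were called. The complex I value minus the complex III value was 0.22 for Bnip3, with a 95% interval from -0.31 to 0.75, and -0.05 for Pdk1, with an interval from -0.43 to 0.34. These intervals are wide enough to hold differences as large as several of the changes described above, so the classes were neither shown to differ nor shown to be alike.

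The inhibitors differed widely among themselves, at concentrations from 0.01 to 10 μM. Bnip3 was lowest of all 297 chemicals with famoxadone at 10 μM (-1.81, from libraries at -1.30 and -2.31). It was close to that with trifloxystrobin at 10 μM (-1.70), fenpyroximate at 0.1 μM (-1.65) and pyraclostrobin at 0.1 μM (-1.48). Fenamidone at 10 μM (-0.98), fluoxastrobin at 1 μM (-0.89) and bifenazate at 10 μM (-0.83) formed a second step, although the 2 fenamidone libraries, at -1.63 and -0.33, spanned most of this range. Pyridaben at 0.1 μM (-0.58) and rotenone at 0.01 μM (-0.36, from libraries at -0.42 and -0.29) were closer to the centre. Azoxystrobin at 0.1 μM (-0.07) and tebufenpyrad at 0.01 μM (0.09) lay near it. Cyazofamid at 10 μM, a complex III inhibitor that binds the inner quinone site, was at 0.98, and only 3 chemicals were higher. Most chemicals had a single library, so neighbours in this order cannot be separated beyond the spread between libraries.

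Some of these chemicals are structural relatives. Azoxystrobin and pyraclostrobin, both strobilurins, were used at the same concentration of 0.1 μM, and the Bnip3 values were -0.30 and 0.17 in the azoxystrobin libraries and -1.48 in the pyraclostrobin library. The values of the other members of that family, trifloxystrobin and fluoxastrobin, were obtained at higher concentrations and are not comparable. The difference between these chemicals was not tested.

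Slc2a1 did not follow Bnip3 with several of the inhibitors. With pyraclostrobin Slc2a1 was at 0.33 and with fenamidone at 0.83, the latter exceeded by 9 chemicals, while Bnip3 was at -1.48 and -0.98. Cyazofamid split the other way, with Slc2a1 at -0.07 and Bnip3 at 0.98. Rotenone (0.21 and -0.36) split less. Chemicals outside the classes also split, such as ethalfluralin with Slc2a1 at 0.54 and Bnip3 at -0.76. The Slc2a1 values of the fenamidone libraries were 0.12 and 1.54. These libraries differed in sign for the other 8 genes, Hk2 (-0.79 and 2.16), Pfkp (0.12 and -0.32), Aldoa (-0.28 and 0.38), Pgk1 (-0.44 and 0.46), Ldha (-0.69 and 0.21), Pdk1 (-0.70 and 0.31), Vegfa (-0.18 and 0.65) and Ak4 (-0.04 and 0.82). The spread between replicate libraries of fenamidone was thus as large as the differences between chemicals.

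**Figure D2:**
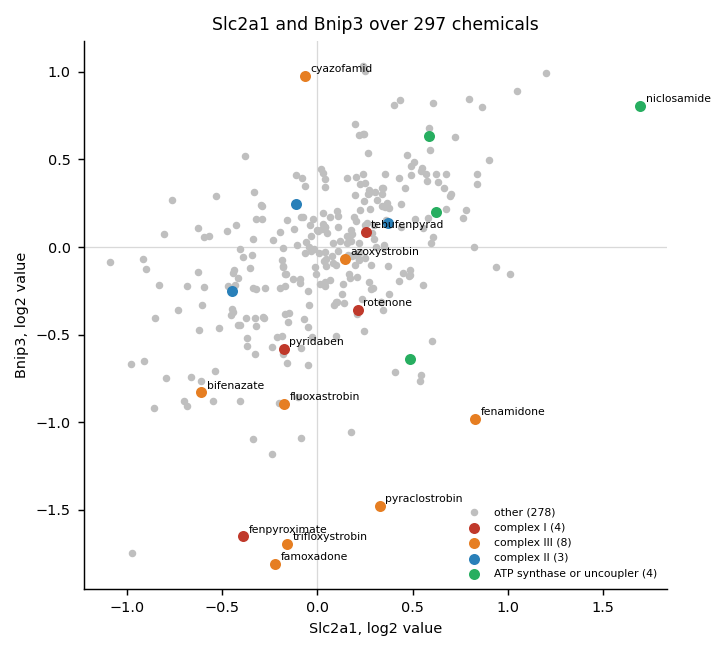
Log2 screen values of Slc2a1 (horizontal) and Bnip3 (vertical), 1 point per chemical, with inhibitors coloured by target and those of complexes I and III and niclosamide named. Pyraclostrobin and fenamidone lie at the lower right, apart from the trend of the grey points, while famoxadone, trifloxystrobin and fenpyroximate lie at the bottom and niclosamide at the upper right.

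A second group of mitochondrial chemicals held the complex II inhibitors boscalid, carboxin and flutolanil (10 μM each) and 4 chemicals that block ATP synthase or dissipate the proton gradient, fentin (0.01 μM), propargite (1 μM), fluazinam (0.1 μM) and niclosamide (1 μM). None of the 10 genes passed the limma test against the other chemicals, and 0% of all genes were called. The differences were above 0 for 10 of 10 genes, with a median of 0.20, and 4 genes had an unadjusted p under 0.05 (Aldoa, Slc2a1, Vegfa and Ldha).

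With the complex II inhibitors alone, 4 of 10 differences were below 0, the median was 0.04, none of the 10 genes passed and none had an unadjusted p under 0.05. For Hk2 the complex II value rested on carboxin (-1.85), since boscalid was at 0.13 and flutolanil at 0.52. With the ATP synthase inhibitors and uncouplers all 10 differences were above 0, with a median of 0.29, and the difference between these classes was not tested. Slc2a1 stood at 1.70 with niclosamide, 0.62 with fluazinam, 0.58 with fentin and 0.49 with propargite, and all 4 values were above the median of the other chemicals, 0.08. The difference was 0.80 on the log2 scale (SE 0.21), with an adjusted p of 0.179 in limma, and 0.51 without niclosamide. Hk2 stood at 2.05 with niclosamide, 0.76 with fluazinam, 0.60 with fentin and 0.44 with propargite, and its difference was 1.07 (SE 0.41, adjusted p = 0.487), or 0.71 without niclosamide. Niclosamide gave the highest value of all 297 chemicals for Slc2a1, Hk2, Aldoa and Vegfa. For these 4 chemicals none of the 10 genes passed, 5 had an unadjusted p under 0.05, and 0.015% of all genes were called, all lower.

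The difference between the chemicals of complexes I and III and these 4 chemicals was tested directly, a comparison added after the values had been seen. It passed for 7 of 10 genes, all lower with complex I and III inhibitors, against 2.01% of all genes called lower and 2.54% called in either direction (limma). The differences were -1.65 for Hk2 (SE 0.47, adjusted p = 0.0276), -1.02 for Bnip3 (SE 0.25, adjusted p = 0.0106) and -0.85 for Slc2a1 (SE 0.24, adjusted p = 0.0313). They were -0.73 for Pdk1, -0.69 for Ldha, -0.65 for Vegfa and -0.52 for Aldoa. With 4 chemicals of 1 library each, the count rested on single libraries: it was 0 of 10 without niclosamide, 2 without fentin and 4 without fluazinam. It lay between 5 and 7 when any one of the complex I and III inhibitors was left out.

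**Figure D3:**
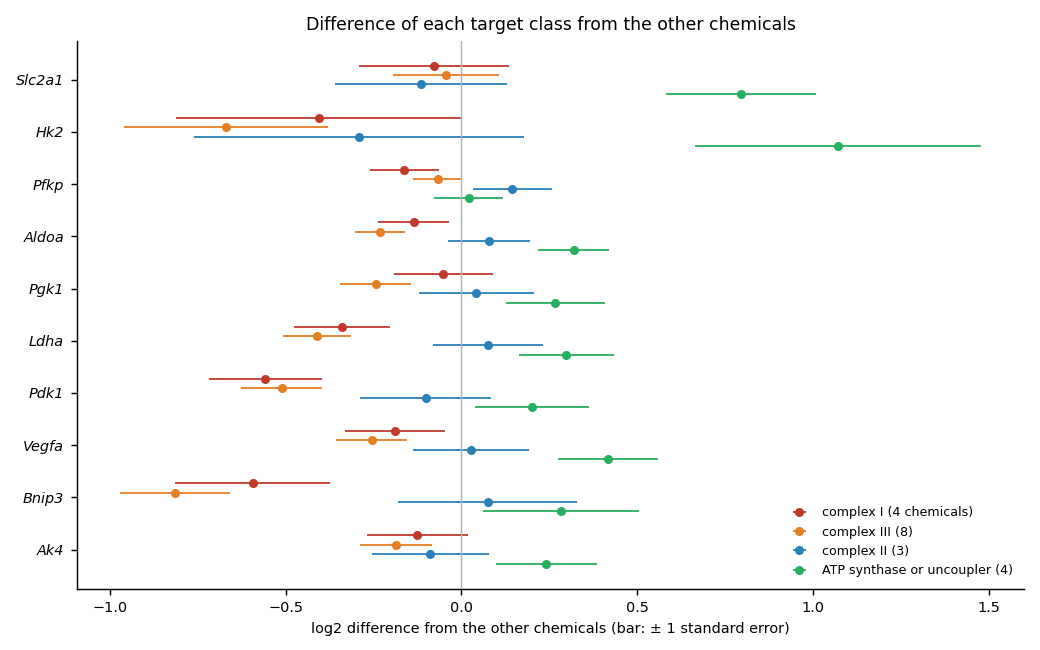
Difference of each target class from the 278 other chemicals on the log2 scale (horizontal), for the 10 genes. Points are limma estimates and bars are 1 standard error to each side. Complex I and III inhibitors lie below 0 for all 10 genes, and ATP synthase inhibitors and uncouplers lie above 0 for all 10.

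Topotecan (0.3 μM), an inhibitor of topoisomerase 1, served as a contrast with many libraries. In its 32 libraries against the 49 vehicle libraries, 2 of 10 genes rose, against 24.9% of all genes called higher and 45.8% called in either direction. Hk2 had a mean of 0.11 with topotecan and -0.36 with vehicle, a difference of 0.47 (SE 0.17, adjusted p = 0.0199). Vegfa had means of -0.06 and -0.28, a difference of 0.22 (SE 0.08, adjusted p = 0.0132). Bnip3 differed by -0.04 with topotecan, with a 95% interval from -0.24 to 0.15, and Ldha by 0.03, with an interval from -0.09 to 0.15. The 278 other chemicals also stood above vehicle for Vegfa, by 0.25 (SE 0.05, adjusted p = 6.94e-05), and for Aldoa, by 0.10 (SE 0.03, adjusted p = 0.0262), against 1.68% of all genes called higher, 2.83% called lower and 4.51% called in either direction.

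The 10 genes varied together over the screen, with the exception of Pfkp. Over the 297 chemicals, the 36 pairs of genes without Pfkp had Spearman correlations from 0.383 to 0.844 with a median of 0.613, and the 9 pairs with Pfkp from -0.0305 to 0.169. The highest were Ldha with Bnip3 (0.844) and Pdk1 with Bnip3 (0.837). The 278 other chemicals alone gave 0.38 to 0.824 for the 36 pairs, so the pattern was as strong without the mitochondrial inhibitors. It was also present in cultures given no chemical, as the 49 vehicle libraries gave 0.338 to 0.904, with 0.904 for Ldha and Bnip3. These values are descriptive, and the libraries share the authors' normalization and batch correction.

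**Figure D4:**
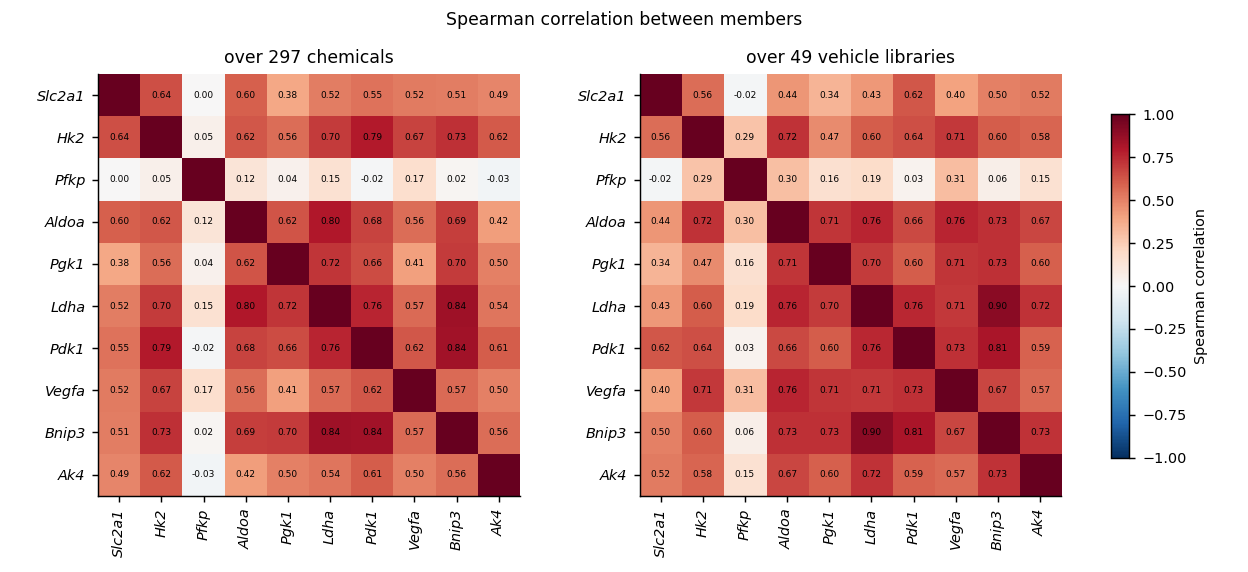
Spearman correlation between each pair of the 10 genes over the 297 chemicals (left) and the 49 vehicle libraries (right), on a colour scale from -1 to 1. Pfkp stands out as a pale row and column in both panels, and Ldha with Bnip3 reaches 0.84 and 0.90.

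Genes outside the 10 with the most similar pattern were found by their Spearman correlation with the mean of the 10 genes over 297 chemicals. They were Tpi1 (0.858), Gm5506 (0.841), Pkm (0.789), Aldoart1 (0.786) and Ddit4 (0.778). Tpi1 and Pkm encode glycolytic enzymes and Ddit4 an inhibitor of mTORC1 signalling. Gm5506 and Aldoart1 are near copies of Eno1 and Aldoa, so reads could have been shared with the parent gene and their values are uncertain. Pfkp, with a correlation of 0.196, had rank 723 among all genes, although it is itself part of that mean.

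Further genes of the same pathways were examined from lists of glycolysis and of hypoxia. In the comparison of complex I and III inhibitors with other chemicals, 24 of 28 glycolysis genes were measured, of which 12 fell, 1 rose and 11 did not pass, with a median difference of -0.17. Of all genes, 14.4% fell and 8.2% rose in this comparison, with a median of -0.00. Of the 10 glycolytic enzymes among them 8 fell, including the liver-type phosphofructokinase gene Pfkl (-0.53, SE 0.10, adjusted p = 1.14e-05), Pkm (-0.28, adjusted p = 3.34e-07) and Tpi1 (-0.36, adjusted p = 1.05e-05). The lactate exporter gene Slc16a3 fell by 0.95 (SE 0.25, adjusted p = 0.00175), while Slc16a1, a monocarboxylate transporter gene, rose by 0.18 (SE 0.05, adjusted p = 0.00667). Gapdh was not analysed here.

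Of the hypoxia list, 30 of 32 genes were measured, of which 7 fell, 2 rose and 21 did not pass, with a median of -0.07. With 22.6% of all genes called in either direction, the 9 calls among 30 were near the background. The HIF-induced genes Ankrd37 (-1.01, SE 0.33, adjusted p = 0.0142) and Kdm3a, a histone demethylase gene (-0.43, SE 0.09, adjusted p = 0.00013), fell, as did the HIF prolyl hydroxylase gene Egln3 (-0.40, SE 0.13, adjusted p = 0.0115). Epas1, which encodes HIF-2α, rose by 0.50 (SE 0.12, adjusted p = 0.000518), and Plod2, a collagen lysyl hydroxylase gene, by 0.25 (SE 0.08, adjusted p = 0.0127). The HIF-1 subunit genes Hif1a (0.09, adjusted p = 0.0983) and Arnt (0.13, adjusted p = 0.31) did not pass. Neither did Egln1 (-0.15, adjusted p = 0.0536), Egln2 (-0.04, adjusted p = 0.532), Hif1an (-0.06, adjusted p = 0.204) or Vhl (-0.01, adjusted p = 0.843). HIF is controlled mostly at the level of protein, which was not measured.

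Pyraclostrobin, a complex III inhibitor, was then examined in counts from 4 treated and 4 vehicle libraries, with totals from 2409623 to 7833440 counts. The library numbers 428, 702, 703 and 704 occur in both groups, and the pyraclostrobin library numbered 428 is the library that stands for this chemical in the screen. Values are given as CPM, counts scaled to a common library size and corrected for library composition (TMM), in the order 428, 702, 703 and 704. At the threshold of 0.01, 1 of 10 genes passed (edgeR quasi-likelihood test, Benjamini-Hochberg adjustment), and it was lower, against 9.22% of all 12324 genes tested that were called lower, 12.1% called higher and 21.3% called in either direction. Of the 10 genes, 4 had an unadjusted p under 0.05. At the threshold of 0.05, 3 of 10 were lower and 1 was higher, against 16.4% of all genes called lower, 18.5% called higher and 34.9% in either direction. Calls in either direction were therefore about as frequent among the 10 genes as in the whole table at 0.05.

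**Figure D5:**
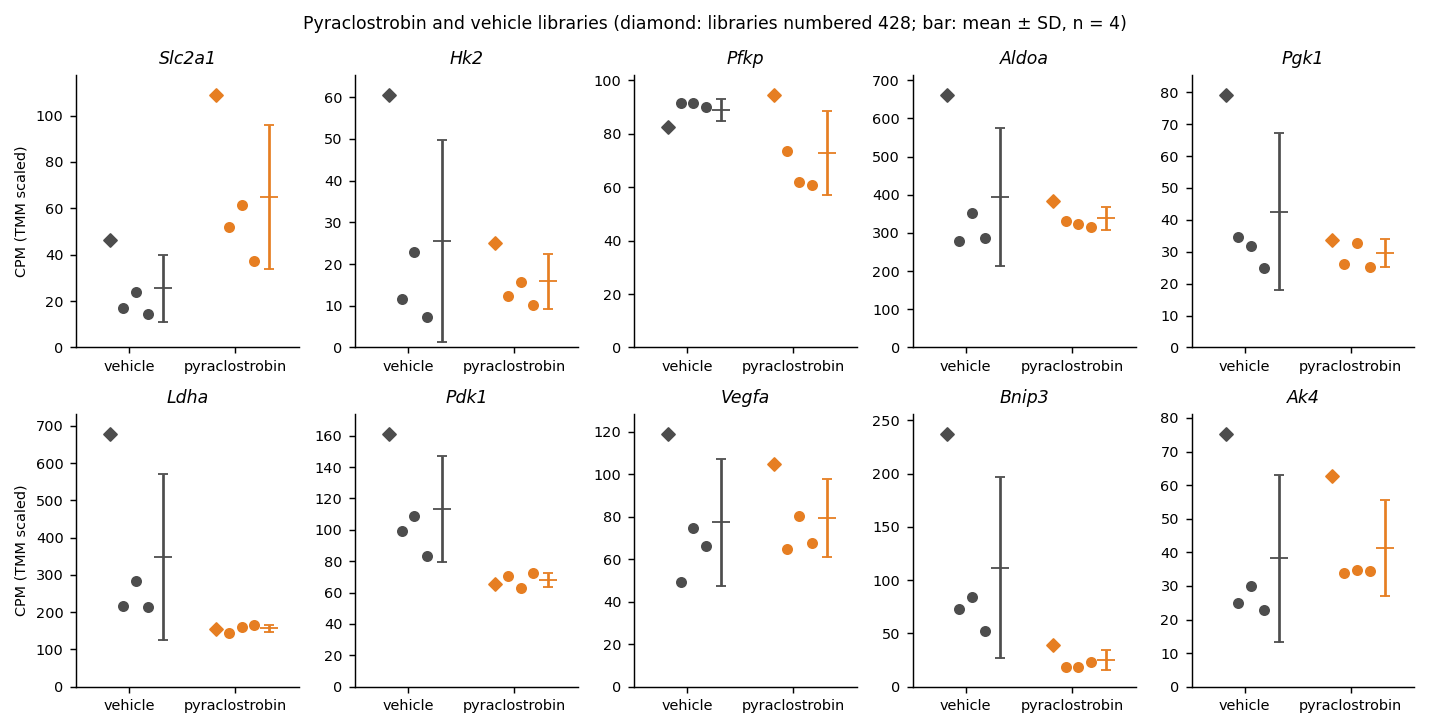
CPM of the 10 genes in each of the 4 vehicle and 4 pyraclostrobin libraries, with mean and SD beside the points and diamonds for the libraries numbered 428. The groups do not overlap for Ldha, Pdk1 and Bnip3, and the vehicle diamond is the highest vehicle point in 9 of 10 panels.

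The gene that passed at 0.01 was Bnip3. It had 39.2, 18.8, 19 and 23.3 CPM with pyraclostrobin and 237, 72.8, 84.6 and 51.9 CPM with vehicle, so all treated libraries were below all vehicle libraries. The level was 25.1 ± 9.66 CPM with pyraclostrobin and 112 ± 84.8 CPM with vehicle (mean ± SD, n = 4 libraries). Bnip3 fell by 2.14 on the log2 scale (SE 0.46, adjusted p = 0.00406), or 4.41-fold. The call at 0.01 was lost without pyraclostrobin library 702, 703 or 704 (adjusted p up to 0.0155), where the difference was -2.05, -2.05 and -2.14. Without vehicle library 428 the gene passed, with a difference of -1.48, or 2.78-fold (adjusted p = 0.000533).

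Ldha and Pdk1, which also did not overlap between groups, passed at 0.05 but not at 0.01. Ldha had 156, 145, 160 and 165 CPM with pyraclostrobin and 678, 217, 285 and 214 CPM with vehicle, a difference of -1.15 (SE 0.33, adjusted p = 0.0182). The treated libraries were tightly grouped and the vehicle libraries were not. Pdk1 had 65.5, 70.3, 63.2 and 72.7 CPM against 161, 99.3, 109 and 83.0 CPM, a difference of -0.73 (SE 0.19, adjusted p = 0.0115). Without vehicle library 428, both passed at 0.01, with differences of -0.62 for Ldha (adjusted p = 0.00119) and -0.52 for Pdk1 (adjusted p = 0.00368). Of all genes, 16.9% had groups without overlap and lower values with pyraclostrobin.

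Slc2a1 went the other way. It had 109, 51.8, 61.3 and 37.1 CPM with pyraclostrobin and 46.4, 17.1, 23.9 and 14.6 CPM with vehicle, a difference of 1.38 (SE 0.39, adjusted p = 0.0184), or 2.59-fold, which passed at 0.05. The groups overlapped because vehicle library 428 was above pyraclostrobin library 704. Within each library number the treated library was higher, by 1.23, 1.57, 1.34 and 1.32 on the log2 scale. Without vehicle library 428, Slc2a1 passed at 0.01, with a difference of 1.79 (adjusted p = 0.00096).

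The remaining 6 genes did not pass at 0.05 either. Hk2 had 25.1, 12.4, 15.6 and 10.3 CPM with pyraclostrobin and 60.6, 11.7, 22.9 and 7.20 CPM with vehicle (-0.65, SE 0.57, adjusted p = 0.412). Aldoa (338 ± 30.6 against 394 ± 181 CPM, n = 4) differed by -0.22 (adjusted p = 0.529) and Pgk1 (29.5 ± 4.34 against 42.6 ± 24.7 CPM) by -0.50 (adjusted p = 0.261). The vehicle SD of these genes came mainly from library 428. Pfkp had 94.6, 73.6, 62.0 and 60.8 CPM with pyraclostrobin and 82.7, 91.5, 91.5 and 90 CPM with vehicle (-0.29, SE 0.15, adjusted p = 0.163). Vegfa (79.6 ± 18.3 against 77.3 ± 29.6 CPM) differed by 0.05 (adjusted p = 0.905) and Ak4 (41.4 ± 14.3 against 38.2 ± 24.9 CPM) by 0.14 (adjusted p = 0.804).

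The libraries numbered 428 stood apart for these genes, and not for these alone. Pairs of libraries of a group were compared over the count table by chi-square per degree of freedom, which grows with their disagreement. It was 18.9 to 26 between vehicle library 428 and the other vehicle libraries, and 2.17 to 2.63 among those others. For pyraclostrobin it was 7.79 to 10.6 with library 428 and 1.82 to 2.98 without it. Vehicle library 428 had the highest value of the 4 vehicle libraries for 9 of 10 genes, with a median excess of 1.36 on the log2 scale over the other vehicle libraries, while the median over all genes was 0.08. Pyraclostrobin library 428 was the highest of its group for 8 of 10 genes, with a median excess of 0.55. In vehicle library 428, Bnip3 was 3.4 times, Ldha 2.84 times and Hk2 4.35 times the mean of the other vehicle libraries.

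Without both of these libraries, an alternative chosen after seeing the data, 5 of 10 genes passed at 0.01, against 39.8% of all 11997 genes tested. Bnip3 (-1.77, adjusted p = 1.6e-07), Ldha (-0.62, adjusted p = 5.07e-05), Pdk1 (-0.50, adjusted p = 0.00101) and Pfkp (-0.47, adjusted p = 0.000461) fell, and Slc2a1 rose by 1.41 (adjusted p = 5.14e-06). The Ldha difference was thus smaller than with all libraries. Of all genes, 19.8% rose and 20% fell in this fit.

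The fit with composition scaling called 1495 genes higher and 1136 lower (56.8% higher), and library totals without composition scaling gave 1855 and 706 (72.4% higher), with a median over all genes of 0.15. Relative to that median, the Slc2a1 difference of 1.52 on library totals was close to the scaled one.

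In the same lists of pathway genes, 23 glycolysis genes were tested in the counts, of which 4 fell, 1 rose and 18 did not pass, with a median of -0.33. Over all genes 9.22% fell and 12.1% rose (21.3% in either direction), with a median of -0.00. Calls in the list were thus about as frequent as over all genes, but leaned to falls. Pfkl fell by 1.43 (SE 0.32, adjusted p = 0.00523), the neuronal enolase gene Eno2 by 0.92 (SE 0.18, adjusted p = 0.00235), the hexokinase gene Hk1 by 0.87 (SE 0.14, adjusted p = 0.000641) and Pfkfb4, a regulator of phosphofructokinase, by 0.77 (SE 0.19, adjusted p = 0.00801). Slc16a1 rose by 1.29 (SE 0.28, adjusted p = 0.00403). Without the libraries numbered 428, 9 of 22 fell and 2 rose, against 20% and 19.8% of all genes.

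Of 28 hypoxia genes tested in the counts, 5 rose, 2 fell and 21 did not pass, with a median of 0.03, near the 21.3% of all genes called in either direction. Adm, which encodes the vasodilator peptide adrenomedullin, rose by 2.85 (SE 0.45, adjusted p = 0.000727), Loxl2, a lysyl oxidase gene, by 2.67 (SE 0.27, adjusted p = 5.45e-05), Epas1 by 2.52 (SE 0.28, adjusted p = 0.000102), Plod2 by 1.90 (SE 0.26, adjusted p = 0.000311) and Hif1a by 0.54 (SE 0.13, adjusted p = 0.00793). The Adm value rests on low counts, since without the libraries numbered 428 this gene no longer passed the filter and was not tested. The genes that fell were Bnip3l, the relative of Bnip3 (-0.84, SE 0.16, adjusted p = 0.00181), and the transferrin receptor gene Tfrc (-0.59, adjusted p = 0.0064), the latter named after its value was seen. Arnt (0.47, adjusted p = 0.0602), Egln1 (-0.10, adjusted p = 0.728), Egln2 (-0.44, adjusted p = 0.0189), Egln3 (-0.38, adjusted p = 0.61), Hif1an (-0.22, adjusted p = 0.238) and Vhl (-0.03, adjusted p = 0.898) did not pass at 0.01. Without the libraries numbered 428, 8 of 26 rose and 5 fell, against 19.8% and 20% of all genes.

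Cell type markers shifted with pyraclostrobin as well. The 4 neuron markers were all lower, with a summed level of 1610 to 1960 CPM against 4010 to 4370 CPM in vehicle. The summed astrocyte markers spanned 608 to 2460 CPM against 198 to 629 CPM, but 0 of 4 passed at 0.01 in edgeR, although all 4 had an unadjusted p under 0.05 (adjusted p = 0.0117 for Slc1a3 and 0.0896 for Gfap). Microglial markers summed to 29.9 to 43.4 CPM against 7.28 to 13 CPM, with 3 of 3 tested higher, and oligodendrocyte lineage markers to 167 to 293 CPM against 77.4 to 179 CPM, with 1 of 3 higher. Mural or fibroblast markers summed to 99.2 to 201 CPM against 17.6 to 38.4 CPM, with 2 of 3 higher, and endothelial markers to 1.57 to 3.61 CPM against 0.691 to 1.41 CPM, with none tested and Cldn5 at 0 in all libraries. The part of these shifts in the changes of the 10 genes and of the pathway lists was not tested.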

How the data were processed

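Polyadenylated RNA of mouse cortical cultures was sequenced from TruSeq libraries. Reads passed through TagDust and were mapped by the authors with TopHat on mm9 (TopHat, with no version, and mm9 also stand in the submitters' processing notes), then counted over RefSeq exons by gene symbol. The pyraclostrobin table was deposited as these raw counts. The screen table was deposited as log10 values: the authors took RPKM to log10, quantile-normalized the libraries, centred each gene on its median and took out effects of culture and sequencing run by a mixed model, so such batches could no longer be examined. These log10 values ran from -1.75 to 1.42 and were converted to log2. The depth of the screen libraries is unknown from that table.

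Chemicals were assigned to a mitochondrial target from textbook knowledge, not from expression or from the labels. Each chemical entered limma 3.58.1 (R 4.3.3, variance trend) as the median of its libraries, in 1 fit of complexes I and III, complex II with ATP synthase inhibitors and uncouplers, and other chemicals, and in another with the 4 target classes apart. Adjusted p-values (Benjamini-Hochberg) were taken over all genes, with a threshold of 0.05 in the screen. Chemicals of a class stood as its replicates although their concentrations differed, and each fit used 1 variance per gene for all classes. Counts were fitted with edgeR 4.0.16 (TMM, quasi-likelihood) on genes that reached 10 counts in 4 or more libraries, with a threshold of 0.01, and the standard error of a log2 difference was derived from the F statistic. DESeq2 1.42.0 served as an alternative. Scripts were tested on simulated data. Tables and plots were made with Python 3.11.15, pandas 2.3.3 and matplotlib 3.10.9.

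The labels do not say whether libraries of a group came from separate cultures. A figure legend of the paper describes the pyraclostrobin libraries as made in quadruplicate from 3 biological replicates. The description of its supplementary data gives 4 sample replicates. The 4 libraries per group may therefore not be 4 independent cultures. The p-values measure the spread between these libraries, which may in part be technical. No pair of libraries agreed within sampling noise. Count columns numbered 702 to 704, and all vehicle columns, were matched to a group by name but not to a single sample. A further count table, of fenamidone with and without sulforaphane, was not used because its columns share 1 name, and the comparison planned for it was not run. The 10 genes, the pathway lists and the tests were chosen with earlier results of these data known. Named were the 10 genes, the 5 largest rises and falls among called genes of the lists, the HIF subunits and hydroxylases with Vhl, the 5 genes most like the mean of the 10 (each scaled to its SD), every mitochondrial inhibitor, and the 5 highest and lowest other chemicals. Alternatives were each reference, threshold, filter, scaling and left-out chemical or library given in the closing section. Positions are those of the mm9 annotation and promoter sequences those of RefSeq.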

Additional observations from a re-analysis of the deposited data

Results flagged for a closer look

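In the pyraclostrobin counts, single libraries were checked for values far from the rest of their group of 4, by the gap to the nearest library divided by the range of the group. Of 20 groups (10 genes, each with pyraclostrobin and vehicle), 2 were past Dixon's critical value for 4 samples, and chance alone flags about 1 in 20. For Pfkp the vehicle library numbered 428 was the lowest, with a ratio of 0.841, and for Ak4 the pyraclostrobin library numbered 428 was the highest, with a ratio of 0.962.

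Genes whose response differed between sets of mitochondrial inhibitors were flagged by limma on the difference itself (complex I and III inhibitors minus ATP synthase inhibitors and uncouplers). The log2 differences were -0.85 for Slc2a1, -1.65 for Hk2, -0.52 for Aldoa, -0.69 for Ldha, -0.73 for Pdk1, -0.65 for Vegfa and -1.02 for Bnip3. This comparison was added after the values had been seen, and its count of 7 genes fell to 0 without niclosamide.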

How the results depend on the processing

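For complex I and III inhibitors against other chemicals (5 of 10 genes called), the count was 2 when only genes with an SD above 0.1 on the log10 scale were tested, a set that holds 5121 genes and not Pfkp, Aldoa, Pgk1, Ldha, Vegfa or Ak4. It was 3 against the vehicle libraries, 2 with all 4 classes as 1 group, and 4 to 7 with each chemical left out. Bnip3 (-0.90 to -0.40) and Pdk1 (-0.61 to -0.31) were called under all 19 alternatives, Ldha under 17 of 18, Aldoa under 16 of 18 and Vegfa under 8 of 18. Slc2a1 changed sign with every library as its own value (0.032), against vehicle (0.116), with all 4 classes (0.115) and between -0.13 and 0.001 with 1 chemical left out. Vegfa did so against vehicle (0.058). The complex I count (1) was 0 at a threshold of 0.01, 0 with the SD filter and 0 to 3 with a chemical left out. The complex III count (4) was 2 with the SD filter and 3 to 7 with a chemical left out. The count for complex II inhibitors, ATP synthase inhibitors and uncouplers (0) was 1 against vehicle, and the count for complexes I and III against ATP synthase inhibitors and uncouplers (7) ran from 0 to 7 with a chemical left out. The topotecan count (2) was 0 at 0.01 and 1 with the SD filter.

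For pyraclostrobin (1 of 10 called at 0.01), the count was 4 with DESeq2, 2 with RLE size factors, 3 without a filter on low counts, 4 at 0.05 and 0 to 4 with 1 library left out (4 without vehicle library 428). Without both libraries numbered 428 it was 5, and 6 at 0.05. With the replicate block it was 2 (Slc2a1, 1.37 with adjusted p = 8.93e-05 in edgeR, and Bnip3, -1.99 with adjusted p = 0.000131), and 3135 genes in all were called against 2631. Deviations of libraries with the same number had correlations of 0.375, 0.101, -0.03 and 0.16, and only number 428 correlated best with its own number, so the numbers were not taken as pairs, although the study speaks of matched vehicle controls. With 1 library left out, the difference ran from -0.99 to 0.15 for Hk2, -0.36 to 0.14 for Aldoa, -0.16 to 0.30 for Vegfa and -0.16 to 0.67 for Ak4. Aldoa was at 0.077 without both 428 libraries, at either threshold, and Vegfa at -0.043 without the filter. The causes were not tested. The alternatives planned for the table of fenamidone with sulforaphane were not run.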

Other observations

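Chemicals outside the classes of respiratory inhibitors, ATP synthase inhibitors and uncouplers also stood at the ends of the range of the 10 genes. The mean of the 10 genes, each scaled to its SD over chemicals, was lowest of all 297 chemicals with oxyfluorfen at 10 μM (-2.55), an inhibitor of protoporphyrinogen oxidase, an enzyme of haem synthesis that in animal cells is itself mitochondrial, for which all 10 genes were below 0 (Hk2, -3.43; Bnip3, -1.75; Pdk1, -1.13). Hexythiazox (-1.93), diquat dibromide (-1.72), MGK (-1.71) and thidiazuron (-1.63) followed among these chemicals, each with 10 of 10 genes below 0. The highest were methylene bis(thiocyanate) (2.23), prallethrin (1.78), dithiopyr (1.58), methomyl (1.57) and quintozene (1.51), each with 10 of 10 genes above 0. All of these had 1 library, and single vehicle libraries ranged from -2.08 to 1.55 on the same scale, so only oxyfluorfen at the low end, and methylene bis(thiocyanate), prallethrin, dithiopyr and methomyl at the high end, lay outside the vehicle range. Of the complex I and III inhibitors, only fenpyroximate (-2.26) lay outside that range, with famoxadone (-2.06), trifloxystrobin (-1.84), bifenazate (-1.83) and the rest inside it.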
